A study of Mus musculus with 6 samples.

Results

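The genes described here encode ubiquitin-like proteins of autophagy (Map1lc3a, Map1lc3b, Gabarap, Gabarapl1 and Gabarapl2) and the cargo receptors Sqstm1, Optn and Nbr1. The others encode the lipid kinase subunit Beclin (Becn1) and the transcription factor Tfeb. These 10 genes were chosen by symbol, and all were listed among the 14016 genes of the deposited table. The RNA came from quadriceps muscle taken 7 days after volumetric muscle loss, a surgical injury in which a piece of the muscle is cut out, filled with saline and with no implant in either group. The groups were 3 WT mice of the C57BL/6 line, young adult females by the study's methods, and 3 ΔdblGATA mice, labelled as GATA-1 mutant, in which deletion of a GATA-binding site at the promoter of Gata1 leaves mice without eosinophils. This deletion is present in every cell of the animal and is not restricted to 1 tissue.

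Autophagy encloses cytoplasm and organelles in a double membrane and delivers them to the lysosome. Proteins of the LC3 and GABARAP subfamilies are cut near their end by ATG4 proteases and joined to a lipid of the growing membrane, where cargo receptors bind them and bring in ubiquitin-tagged proteins or damaged organelles. Beclin belongs to the lipid kinase complexes that mark the site of membrane growth, and TFEB switches on genes of lysosomes and autophagy. In skeletal muscle, autophagy clears damaged mitochondria and protein aggregates, and muscle fibers use it at a high rate when fasted or denervated.

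The level of each gene is the mean log2 CPM in the authors' table, where CPM is the read count scaled to library size, taken over the libraries of both genotypes. It is a single value per gene. The fold changes and p-values in the same table are the authors' comparison of the genotypes and were not used, so no difference between WT and ΔdblGATA muscle is given for any gene. Values per mouse were not analysed here. Spread between the 6 mice and the depth of each library are therefore unknown, and no order of genes below could be tested against replicate error. The tissue matched its label, as all 8 muscle fiber markers checked were listed between 10.70 and 14.65 mean log2 CPM. Macrophage markers were present too, with 5 of 6 listed and Adgre1 (F4/80) not listed under this symbol. Fibroblast and endothelial markers were listed with medians of 8.88 and 6.47 mean log2 CPM. Neutrophil and T cell markers, where listed, reached at most 0.52 and 1.73. The level of a gene therefore cannot be assigned to 1 of these cell types. Of 8 eosinophil markers only Ear2 was listed under the symbol searched, at 0.13. Older names of the markers were not searched, although 487 listed genes were matched to a length by an older name. A marker not listed here may therefore be listed under another name. In such bulk tissue, fewer cells of a type and less RNA per cell cannot be told apart.

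The LC3 and GABARAP genes are related in sequence, and reads can be given to the right gene only where the sequences differ. The end of the coding sequence is shown first for the GABARAP genes, since it holds the longest run of bases that 2 of the 5 genes have in common and encodes the end that ATG4 cuts. Each stretch covers coding bases 295 to 354 of 354, lies in exon 4 of 4 and is written on the plus strand, 5′ to 3′, as in GENCODE M21 (GRCm38). Capitals mark the 33 of 60 bases that are the same in all 3 genes.
Gabarap, chr11:69994465-69994524: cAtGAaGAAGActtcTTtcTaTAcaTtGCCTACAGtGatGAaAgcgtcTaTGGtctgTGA
Gabarapl1, chr6:129541108-129541167: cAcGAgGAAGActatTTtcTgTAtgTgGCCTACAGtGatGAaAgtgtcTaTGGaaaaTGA
Gabarapl2, chr8:111952346-111952405: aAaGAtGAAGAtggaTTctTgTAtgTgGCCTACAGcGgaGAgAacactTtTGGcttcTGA

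Gabarap and Gabarapl1 were the most alike, with 74.9% identity over 354 aligned coding bases and a longest common run of 17 bases, GCCTACAGTGATGAAAG, which starts at coding base 322 of both. Gabarapl2 was 62.5% identical to Gabarap and 63.8% to Gabarapl1. The LC3 genes Map1lc3a and Map1lc3b were 74.1% identical, with a longest common run of 15 bases. Their most similar stretch, coding bases 88 to 147 across exons 2 and 3 of 4, is shown because it is where these genes come closest, and here capitals mark the 53 of 60 bases that are the same in both.
Map1lc3a, chr2:155277005-155277148: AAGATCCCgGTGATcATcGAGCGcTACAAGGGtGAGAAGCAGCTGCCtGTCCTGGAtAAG
Map1lc3b, chr8:121593537-121596036: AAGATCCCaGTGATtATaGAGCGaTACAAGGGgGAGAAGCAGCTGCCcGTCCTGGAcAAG

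The differences are scattered, so that no run of more than 17 bases was common to any pair of the 5 genes over the whole principal transcripts. Between the subfamilies, coding identity was lower and lay between 50.4% for Map1lc3b and Gabarap and 54.3% for Map1lc3a and Gabarapl2. The plot of coding identity shows these subfamilies.

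**Figure D1:**
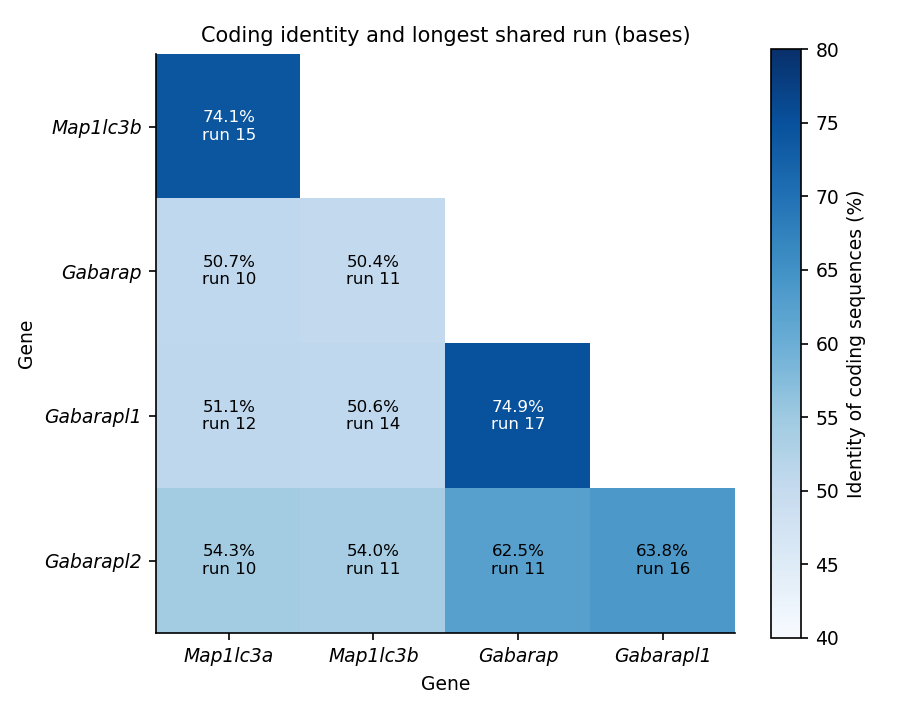
Percent identity of the aligned coding sequences (color, and first line in each cell) and the longest run of bases common to both whole transcripts (second line) for each pair of the 5 LC3 and GABARAP genes. The pairs Map1lc3a with Map1lc3b (74.1%) and Gabarap with Gabarapl1 (74.9%) stand out, and the longest run of any pair is 17 bases.

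Pseudoalignment works on short words of sequence, so the share of each gene's 31-base words that other annotated genes also hold was counted on its principal transcript. Map1lc3a, Gabarap, Sqstm1 and Nbr1 had 0 such words, Tfeb had 1 of 2266 and Optn 1.70%. On its longest coding transcript, where Mrnip on the opposite strand overlaps the exons by 580 bases, Sqstm1 shared 20.9%. For Gabarapl1 it was 19.5%, all of it from the opposite-strand gene 1700101I11Rik, whose exons overlap it by 570 bases. Gabarapl2 shared 21.3% of its words, or 351, and the processed pseudogene Gm3724 held 257 of these. For Map1lc3b the share was 17.3%, or 434 words, and the processed pseudogene Gm6055 held 317 of these. On its longest coding transcript the share was 0.576%. The level per kilobase takes only the length from that transcript, and its CPM is that of the whole gene. Becn1 had the highest share at 48.3%, and its exons overlap those of Cntd1 on the opposite strand by 3104 bases. None of 1700101I11Rik, Gm3724, Gm6055 and Cntd1 was listed under these symbols. Whether the library kept the strand is not given in the sources used here, so reads of Becn1, Gabarapl1 and Sqstm1 cannot be told apart from those of the genes on the opposite strand where they overlap. The levels of Gabarapl2 and Map1lc3b are uncertain as far as reads were split with their pseudogenes or with other genes. The principal transcript of Map1lc3b shared words with 1533 other genes, and that of Gabarapl2 with 252. For Map1lc3b these included listed genes, such as Calcoco1 and Cybrd1 with 52 words each.

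All 10 genes were well expressed in injured muscle. Each lay above the upper quartile of all listed genes (5.36 mean log2 CPM), and 5 of them were above the 90th percentile (6.57). Their median was 6.46, against 4.03 for all 14016 genes.

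Among the ubiquitin-like genes, Map1lc3a encodes LC3A. Its mean was 7.99 log2 CPM, or 254 CPM taken off the log scale, above 97.2% of listed genes. Gabarap, which gives the subfamily its name and was first described as a binding partner of a GABA receptor, stood at 7.55 (188 CPM) and above 95.7% of genes. Map1lc3b encodes LC3B, the form most often stained or blotted as a marker of autophagosomes, and its mean was 7.35 (163 CPM). These levels are not divided by length and place each gene among all listed genes only. Gabarapl2, also known as GATE-16, had a mean of 5.97 and Gabarapl1 one of 5.87, which is 62.6 and 58.3 CPM.

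Since longer transcripts give more reads, the 10 genes were compared with each other after dividing by length, as mean log2 CPM per kilobase of the longest coding transcript. Map1lc3a was at 7.84 on this scale and Gabarap at 7.12. Map1lc3b followed at 5.95, Gabarapl2 at 5.22 and Gabarapl1 at 5.00. Map1lc3a thus held 45.8% of the summed per-length level of the 5 genes, Gabarap 27.8%, Map1lc3b 12.4%, Gabarapl2 7.48% and Gabarapl1 6.42%. These shares rest on the longest coding transcript alone and would change with another length. In each subfamily 1 gene led. Per length, Map1lc3a was 3.69 times Map1lc3b, and this ratio ran from 2.22 to 3.69 under 4 ways of choosing the length. The 2.22 comes from the coding length, with 522 nt for Map1lc3b. The 378 nt that its principal isoform codes over was not applied and would lower this ratio. Gabarap was 4.34 times Gabarapl1 (2.21 to 4.34) and 3.72 times Gabarapl2 (3.00 to 4.79). The leaders themselves were closer, Map1lc3a being 1.65 times Gabarap (1.28 to 1.65). Gabarapl1 and Gabarapl2 changed places with the length used, from 0.858 to 2.17 times.

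Sqstm1 encodes p62, which gathers ubiquitin-tagged proteins into clumps for autophagy. Its mean was 8.63 log2 CPM (397 CPM), not divided by length, and it ranked 204th of all listed genes. Nbr1, which resembles p62 in its domains and works beside it, had a mean of 6.73 (106 CPM). Optn encodes optineurin, a receptor in the removal of damaged mitochondria and of bacteria, and had a mean of 5.55 (46.8 CPM), above 78.1% of listed genes. Per kilobase the receptors stood at 7.22 for Sqstm1, 4.47 for Nbr1 and 4.16 for Optn. Sqstm1 was therefore 6.72 times Nbr1 and 8.30 times Optn per length, and at least 6.72 and 8.30 times under each of the 4 lengths.

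Becn1 had a mean of 6.19 log2 CPM (73.1 CPM) and Tfeb one of 5.98 (63.2 CPM). Per kilobase Becn1 was at 4.07, the lowest of the 10 genes, and Tfeb at 4.75. These 2 values moved most when the median transcript length was used. GENCODE lists 5 coding transcripts for Becn1, the longest of 4365 nt and the median of 725 nt, and 12 for Tfeb, the longest of 2342 nt and the median of 551 nt. With the median length Becn1 was at 6.66 and Tfeb at 6.84, and they moved from 10th and 7th to 5th and 4th of the 10.

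**Figure D2:**
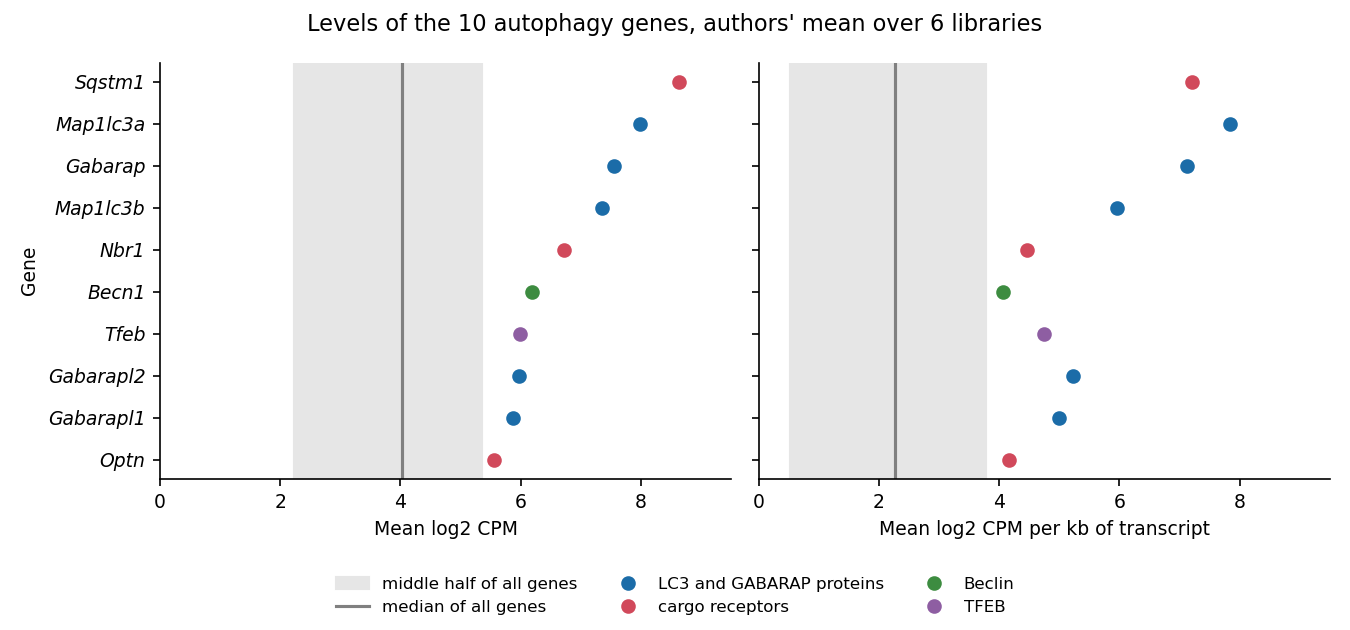
Mean log2 CPM (left) and mean log2 CPM per kilobase of the longest coding transcript (right) of the 10 genes, 1 point per gene, colored by role, each the authors' mean over 6 libraries with no error available. The gray band spans the lower to the upper quartile of all listed genes and the line is their median (4.03 left, 2.28 right), and all 10 points lie to the right of the band in both panels.

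**Figure D3:**
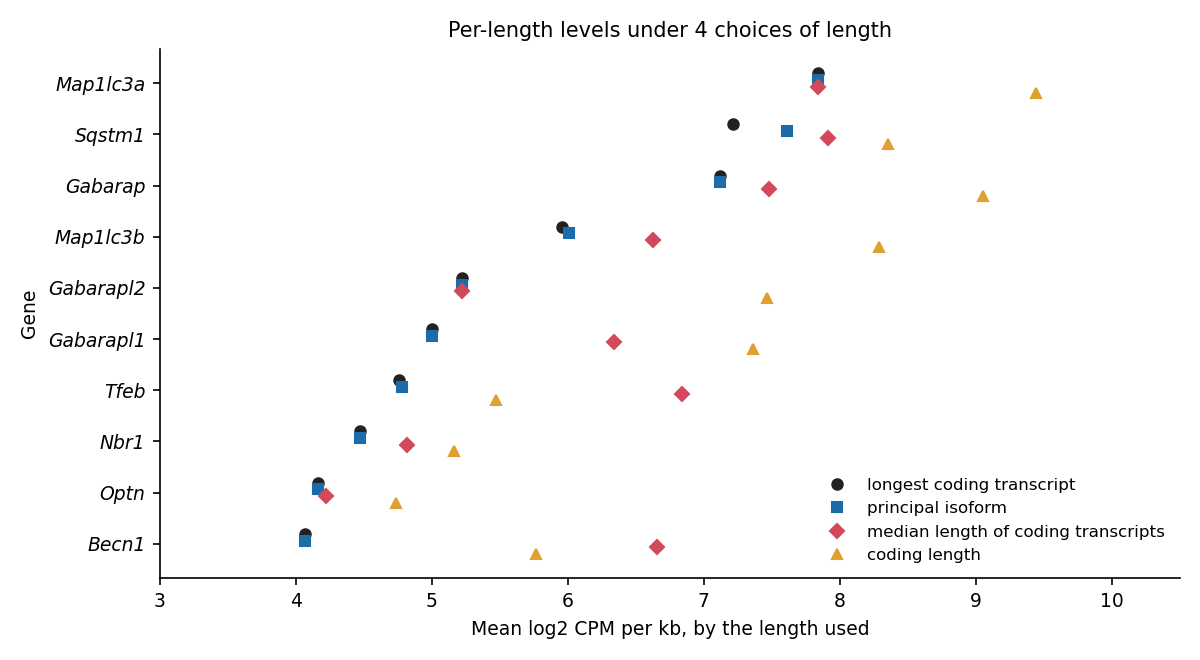
Mean log2 CPM per kilobase of each of the 10 genes when the level is divided by the longest coding transcript, the longest principal isoform, the median coding transcript or the coding length alone, 1 symbol per choice. Map1lc3a, Sqstm1 and Gabarap keep the 3 highest places under every choice as applied, while Becn1 runs from 4.07 to 6.66. The coding length is that of the longest coding transcript, which for Map1lc3b is 522 nt and not the 378 nt of its principal isoform.

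Map1lc3a, Sqstm1 and Gabarap took the 3 highest places of the 10 under all 4 lengths as applied, in changing order. With the coding length, though, Sqstm1 (8.35) and Map1lc3b (8.29) were close. Sqstm1 came first with the median length, at 7.91, and Map1lc3a with the other lengths. Nbr1 and Optn stayed below the ubiquitin-like genes throughout. With the coding length alone, which leaves out untranslated parts, the 5 ubiquitin-like genes lay between 7.36 and 9.44 and Optn, Nbr1, Tfeb and Becn1 between 4.74 and 5.76. The longest coding transcript of Map1lc3b is a single exon with a coding part of 522 nt, whereas its principal isoform codes over 378 nt, and with the principal isoform its level was 6.01. The coding length applied to Map1lc3b was the 522 nt. The shorter 378 nt was not applied and would raise its level, so the place of Sqstm1 above Map1lc3b by coding length rests on that choice.

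To place these genes in their pathway, 44 other autophagy genes were grouped by role, and 42 of them were listed. Rubcn and Retreg1 were not listed under these symbols, and older names were not searched for them. The 42 genes had a median of 3.43 mean log2 CPM per kilobase, the 10 genes one of 5.11, and all listed genes with a known length 2.28. Of the 42, 32 were above the median of all genes per length, as were 10 of the 10. Ranked together by per-length level, Map1lc3a, Sqstm1 and Gabarap were 1st to 3rd of 52 genes, and Becn1, the lowest of the 10, was 22nd. Other choices of length were not applied to the 42 genes. These places and the comparisons by role below rest on the longest coding transcript alone.

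Genes of the machinery that prepares and attaches LC3 and GABARAP had lower RNA levels per length than the LC3 and GABARAP genes. The 11 genes of this group lay between 0.34 and 4.13 mean log2 CPM per kilobase, below each of the 5 LC3 and GABARAP genes. Atg3, which passes LC3 to the lipid, was the highest of them at 4.13, Atg7, which activates LC3, was at 2.44, and the protease gene Atg4b was at 2.82. Atg16l2 was the lowest.

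Genes for the partners of Beclin also had lower RNA levels per length than Becn1 itself. All 6 listed genes of these complexes were below its 4.07, with a median of 2.02. The lipid kinase Pik3c3 was at 2.67, its scaffold Pik3r4 at 1.47 and Atg14, which directs the complex to autophagosomes, at 1.47, while Nrbf2 came closest at 3.89. The per-length level of Becn1 rests on a transcript that overlaps Cntd1, as given above. In the ULK1 complex, which starts autophagy, the 5 genes were between 3.46 and 4.63, with Ulk1 at 3.49.

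Other cargo receptors came nearer to the 10 genes. Their median was 4.64 over 11 listed genes, against 4.47 for Sqstm1, Nbr1 and Optn. Bnip3, a receptor on mitochondria, stood at 6.47 and ranked 4th of the 52, and Stbd1, which binds glycogen, was 6th at 5.65. Tax1bp1 and Calcoco1 were at 5.02 and 4.97, above Nbr1 and Optn. Wdfy3 was the lowest of the group at 1.44, with the longest transcript, 14274 nt.

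Tfeb was higher than its relatives in the same family of transcription factors. It was at 4.75 mean log2 CPM per kilobase, Tfe3 at 2.66, Mitf at 1.70 and Tfec at -0.87. Among the ATG9 and WIPI genes, which supply and shape the membrane, Atg9a was at 4.59 and Wipi1 at 4.51, and Atg9b was the lowest of all 52 genes at -2.44.

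**Figure D4:**
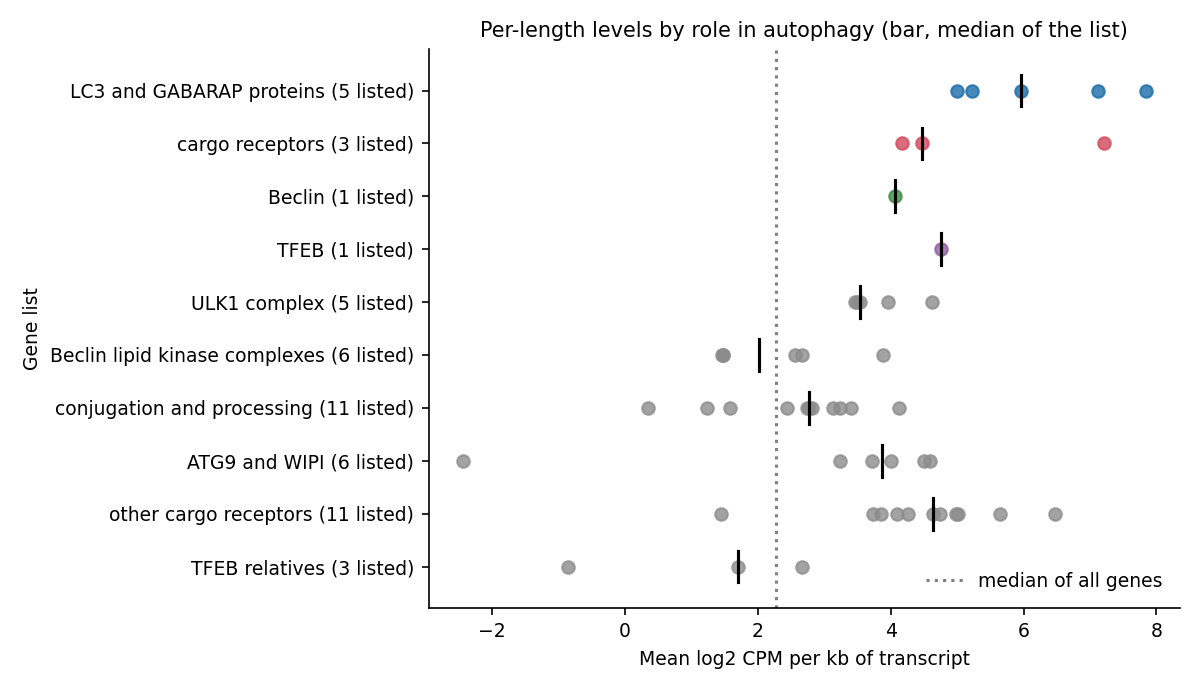
Mean log2 CPM per kilobase of the longest coding transcript for the 10 genes (colored, upper 4 lines) and for 42 other listed autophagy genes grouped by role (gray), 1 point per gene, with a bar at the median of each list and a dotted line at the median of all genes (2.28). The LC3 and GABARAP genes have the highest median (5.95), and the conjugation genes (2.77) and Beclin complexes (2.02) lie to their left.

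TFEB binds a palindrome known as the CLEAR motif, whose core CACGTG is an E-box that reads the same on both strands. The promoter windows of RefSeq (GRCm38.p6), from 250 bases before to 50 after the start, were searched for this core, and 11 windows matched 8 of the 10 genes (Map1lc3a and Becn1 had no entry). The core occurred in 0 of these 11 windows. It was found in 7.15% of all 32851 windows and in 8 of 50 windows, which covered 37 of the other autophagy genes. Beside that share of all windows, 11 windows are too few for 0 to set the genes apart, and the difference was not tested.

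The 10 genes are spread over chromosomes 2, 6, 8, 11 and 17. Gabarap (chr11:69991143-69994951), Sqstm1 (chr11:50199366-50210827), Nbr1 (chr11:101552149-101581951) and Becn1 (chr11:101285952-101302286) are on chromosome 11 of GRCm38. Map1lc3a (chr2:155276297-155278073) and Optn (chr2:5020642-5064051) are on chromosome 2, and Map1lc3b (chr8:121590361-121598760) and Gabarapl2 (chr8:111940703-111953612) on chromosome 8. Gabarapl1 (chr6:129533160-129542346) and Tfeb (chr17:47737030-47792419) each stand alone.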

How the data were processed

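RNA with a poly(A) tail from 3 WT and 3 ΔdblGATA muscles was sequenced in paired-end reads. Per the study's methods, kallisto gave transcript abundances, which the authors collapsed to genes and turned into CPM with edgeR. Genes had to exceed 1 CPM in 3 or more samples, and TMM-normalized log values went into limma. The submitters' processing notes name GRCm39 and mm39, and the transcript index is not given in the sources used here. The deposited values used are the mean log2 CPM of each gene over all libraries. Other columns of the table (fold change, moderated t, p-value, adjusted p-value and log odds) hold the authors' comparison and were not used. A limma fit of the genotypes was planned, needs values per sample and was not run, nor were its alternatives.

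Gene lengths came from GENCODE M21 (GRCm38), with 13458 symbols found as written and 487 by an older name, so that 99.5% of genes had a length. Of the rows, 1 has no symbol. The level per kilobase is the mean log2 CPM minus log2 of the length of the longest coding transcript in kilobases (the longest transcript where none is coding). Coding sequences of principal isoforms were aligned globally with Biopython 1.88, and 31-base words were compared on both strands. The steps were tested on simulated data. The genes named are the 10 of the rule and fixed lists of autophagy genes and cell type markers, all chosen with earlier results of these data known.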

Additional observations from a re-analysis of the deposited data

How the results depend on the processing

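No paired analysis was possible because values per mouse were not analysed here. For the same reason the comparison of genotypes, quantile normalization, a fit without the filter, DESeq2 and leaving out each mouse were not run. The median of the 10 genes, 5.11 mean log2 CPM per kilobase, became 7.41 with the coding length and 6.64 with the median length of coding transcripts, because these lengths are shorter; it stayed 5.11 with the principal isoform, an alternative chosen after the data had been seen. The median share of listed genes below the 10 genes, 88.8%, was 88.6% among genes with a coding transcript and 87.7% among genes with a mean of at least 0 log2 CPM. All 10 genes were above the median gene in these settings and per length. Of 50 values of single genes under these settings, 9 stayed the same to 2 decimals and 41 moved, none of them with a test. Libraries of unknown depth and a single mean per gene limit every value, so that a difference between genes cannot be set against the spread between mice.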
